A study of Mus musculus with 6 samples.

Results

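Interferon-stimulated genes are genes whose transcripts are known to rise when a cell senses interferon, and 42 of them were followed here in mouse haematopoietic stem cells. They were chosen by gene name, with results of these data already known, and all 42 were found among the 55471 gene IDs of the deposited expression table, with 1 entry each. The cells were sorted as Lin-, Kit+, Sca1+, CD48- and CD150+ cells. All mice carried ETV6-RUNX1, a gene fusion known from childhood acute lymphoblastic leukaemia, in a form that can be switched on. The uninduced group (3 libraries) had no doxycycline, and the induced group (3 libraries) came from mice fed doxycycline for 2 weeks. Controls thus carried the fusion construct too, and no group received doxycycline without it, so the response to the fusion and to doxycycline cannot be told apart. The labels give neither the age of the mice nor the promoter that drives the fusion. They also do not say whether libraries came from separate mice or pools, so the p-values below measure only the spread between these libraries, which may be technical.

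Type I interferons bind the receptor made of Ifnar1 and Ifnar2, and the kinases Jak1 and Tyk2 then phosphorylate Stat2, which joins Irf9 in a complex that binds a response element in the promoters of many of these genes. Interferon gamma acts through Ifngr1, Ifngr2, Jak1 and Jak2, and many of its target genes carry another element, the gamma-activated site. Stem cells of the blood are known to hold some interferon-stimulated transcripts without infection, and interferon can bring dormant stem cells into cycle.

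The promoters below are shown because they hold, or lack, the core of the response element in members that differ in their change between the groups. The core searched was GAAANNGAAA, and the gamma-activated site searched was TTCNNNGAA, on both strands, over 250 bases before and 50 bases after the start site. Sequences are from RefSeq on build GRCm38.p6, and the promoter table matched 31 of the 42 members, all but Dhx58, Ifi27, Iigp1, Mx1, Mx2, Oas2, Parp9, Parp14, Rtp4, Usp18 and Zbp1. Each stretch lies upstream of the annotated starts, and capitals mark matches to either motif.
Isg15 (chr4:156200819-156200938, minus strand): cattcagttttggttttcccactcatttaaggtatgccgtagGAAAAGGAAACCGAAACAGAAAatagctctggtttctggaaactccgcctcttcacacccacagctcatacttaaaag
Rsad2 (chr12:26456453-26456572, minus strand): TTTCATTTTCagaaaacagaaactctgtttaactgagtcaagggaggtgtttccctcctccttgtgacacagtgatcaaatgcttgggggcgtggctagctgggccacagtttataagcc
Igtp (chr11:58199436-58199555, plus strand): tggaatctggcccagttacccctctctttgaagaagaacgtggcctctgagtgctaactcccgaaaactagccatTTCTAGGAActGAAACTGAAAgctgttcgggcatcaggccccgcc
Ifitm2 (chr7:140955988-140956107, minus strand): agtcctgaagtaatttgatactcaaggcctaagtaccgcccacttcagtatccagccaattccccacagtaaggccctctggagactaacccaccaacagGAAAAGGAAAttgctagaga
Lgals3bp (chr11:118402093-118402209, minus strand): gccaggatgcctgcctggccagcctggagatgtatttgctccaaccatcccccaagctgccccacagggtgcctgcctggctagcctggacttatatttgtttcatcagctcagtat

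The run in Isg15 holds 3 overlapping matches to the response element core, Rsad2 holds the core on the opposite strand, and Igtp holds a gamma-activated site and, closer to the start, the core. The Lgals3bp window holds neither motif. The core was found in 18 of 31 members (58.1%) and in 1079 of all 27025 promoters of that table (3.99%). The gamma-activated site was found in 10 of 31 members (32.3%) and in 2582 of all promoters (9.55%). Both were found in 6 members, and matches to the 2 motifs overlapped in Bst2 and Ifitm3. The Bst2 and Ifitm3 products are antiviral membrane proteins. A match describes these letters and not a bound site.

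Levels are given on 2 scales, and every value below names its scale. The deposited TPM (the unit StringTie reports) is a length-corrected share of a whole library. Protein-coding genes held 27.5% to 34% of the TPM in uninduced libraries and 21.1% to 23.8% in induced libraries, so a gene's deposited TPM also moves with the other RNA in the library. The protein-coding TPM sets the protein-coding genes of each library to the same total. Changes are induced minus uninduced on log2(TPM + 1), which understates the change of low genes, and "called" means an adjusted p under 0.05 in limma over all tested genes. All 8 stem cell markers checked were above 0 in every library, and they did not move one way. Procr, Hlf, Mecom and Ly6a rose on the protein-coding scale, and Kit fell by 0.81 on deposited TPM (adjusted p = 0.0354), with a protein-coding change of -0.36. Slamf1, which encodes the CD150 used in the sort, and Fgd5 were not called, with deposited changes of -0.78 and -0.58 and protein-coding changes of -0.40 and -0.15. Hoxb5 changed by 1.34 on deposited and 2.39 on protein-coding TPM, not called on either (limma adjusted p = 0.0991 and 0.0699). It was a low gene, at 0.0357 deposited TPM in uninduced replicate 1 and no more than 3.95 in any library. The summed deposited TPM of 8 erythroid markers went from 52.0 to 58.4 in uninduced libraries to 386 to 449 in induced libraries. The 4 globin genes made up 86.5% to 95.7% of that sum in uninduced and 98.3% to 98.7% in induced libraries. Epor, the erythropoietin receptor, was not called and had induced libraries below all uninduced ones, with a protein-coding change of -2.58. The part of either shift in the values below was not tested.

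Of the 42 members, 39 had a mean of at least 1 TPM and were tested. Oas2, an RNA-sensing enzyme, and Mx1 and Mx2, known as antiviral GTPases, were below it. The table types Mx1 and Mx2 as polymorphic pseudogenes, so they have no protein-coding TPM at any level. On the deposited scale no member was called higher (174 of 13470 tested genes, 1.29%, were), and 7 of 39 had an unadjusted limma p under 0.05 with a positive change (502 of all 13470) and 5 with a negative one (3260 of all). Lgals3bp, Eif2ak2, Ifitm3 and Ifitm2 fell (4 of 39), where 10.2% of all tested genes were called lower. The groups did not overlap in 12 members, 6 with the induced libraries higher (4.83% of all tested genes) and 6 with them lower (28.2%). The median change of the tested members was 0.0038, beside -0.35 over all tested genes, and 28 of the 39 lay above that median. Without the variance trend 1 of the 4 calls, Lgals3bp, was left. Under median-of-ratios scaling 3 members were called higher (Ifi27, Igtp and Iigp1) and 1 lower (Lgals3bp).

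On the protein-coding scale Zbp1, Iigp1, Ifi27 and Igtp rose, 4 of 39 members, where 4.23% of the 10575 tested genes were called higher. Lgals3bp and Ifitm3 fell, 2 of 39, where 4.21% of all were called lower. The other 33 were not called. Induced libraries lay above all uninduced ones in 14 members (15.7% of all tested genes) and below them in 4 (14.3%). The median change was 0.40, beside 0.036 over all genes, with 30 members above 0 and 9 below. Without the variance trend Rsad2 was the 1 member called. Without induced replicate 2 the calls numbered 2 (Ifi27 and Lgals3bp), and without induced replicate 3 they numbered 3 (Igtp, Iigp1 and Lgals3bp).

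**Figure D1:**
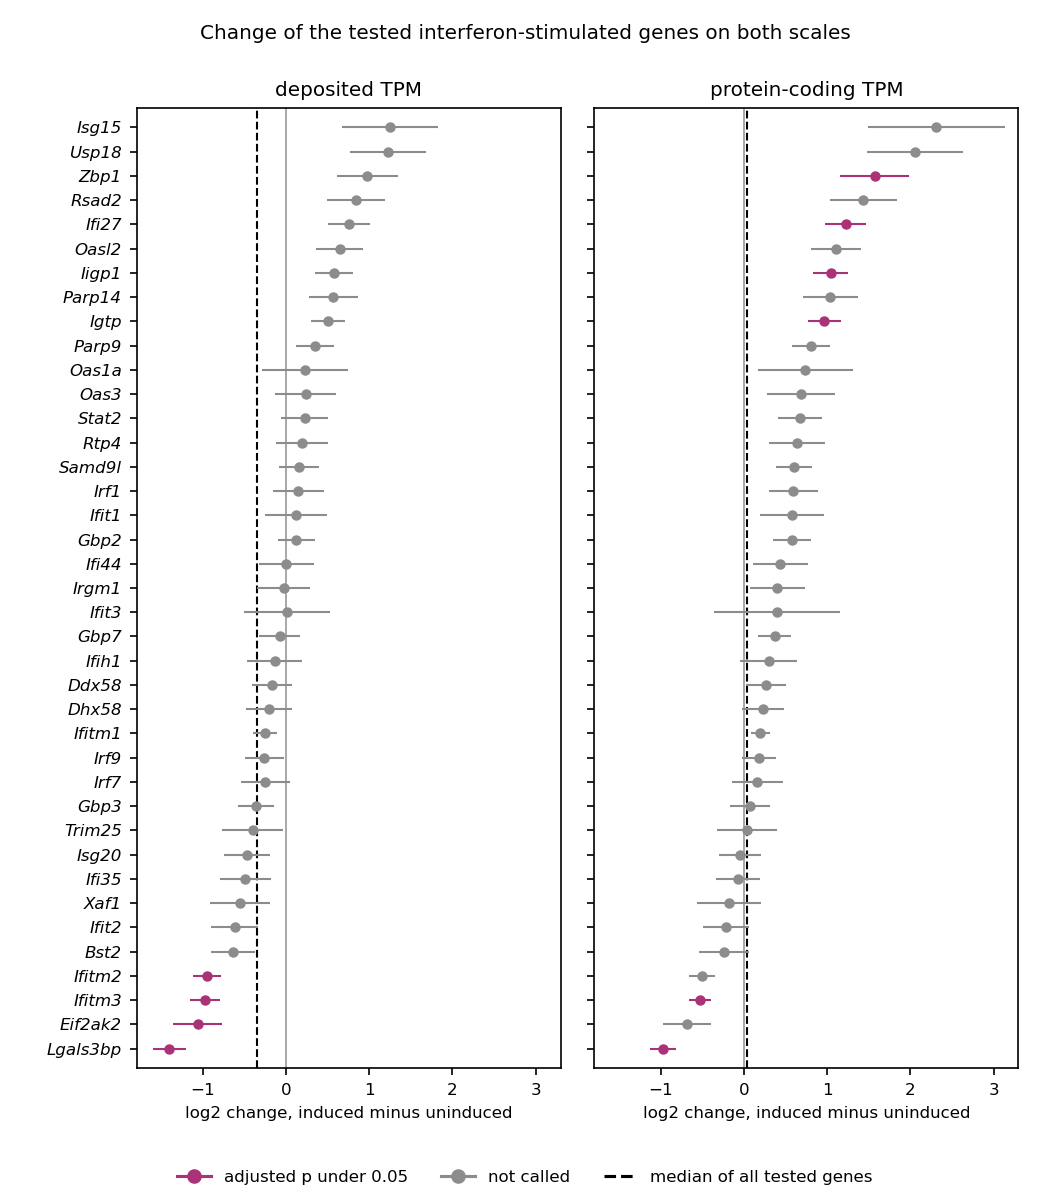
The log2 change of each of the 39 tested members on deposited TPM (left) and protein-coding TPM (right), induced minus uninduced, as points with bars of 1 standard error. The dashed lines mark the median of all tested genes (-0.35 and 0.036), and purple points are the called members, 4 on the left and 6 on the right.

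The members' summed deposited TPM was 1554, 1428 and 1289 in uninduced libraries and 1051, 1060 and 1208 in induced ones, with no overlap. On the protein-coding scale, which leaves out Mx1 and Mx2, the sum over 40 members was 5020, 4197 and 4675 in uninduced and 4640, 5013 and 5061 in induced libraries, and the groups overlapped. Ifitm1, Ifitm2 and Ifitm3 together made up 51.0% to 54.0% of the deposited sum in uninduced and 44.7% to 45.3% in induced libraries. Without these and Lgals3bp, the deposited sums were 586.5, 573 and 487 in uninduced and 528, 537.8 and 614.9 in induced libraries, and overlapped. The protein-coding sums of the remaining 36 members were 1892, 1683 and 1762 in uninduced and 2327, 2541 and 2575 in induced libraries, without overlap. This split was made on these same values and was not tested. Of the 5 members with a mean above 50 deposited TPM, the groups did not overlap on the protein-coding scale in 3, all with induced libraries lower. Of the 13 members with means from 1 to 10 TPM, they did not overlap in 4, all with induced libraries higher, and of the 21 from 10 to 50 TPM in 11, 10 of them higher and 1 lower. Over all tested genes the shares were 15.7% higher and 14.3% lower, and the number of members in each range is small.

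**Figure D2:**
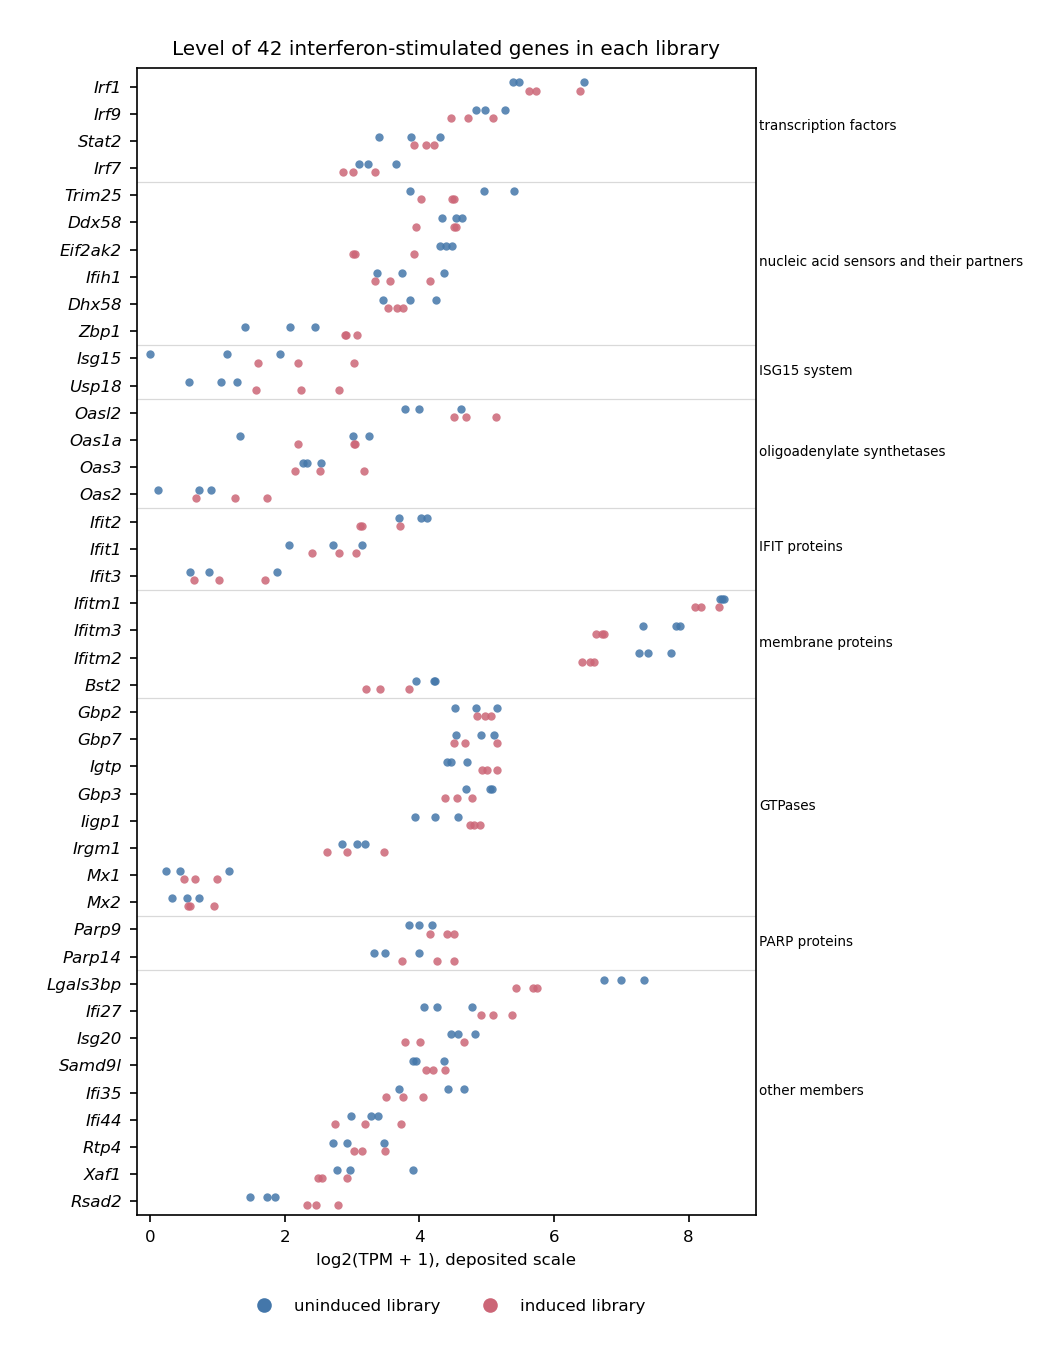
Deposited level of all 42 members in each library as log2(TPM + 1), grouped by the role of the protein, with blue points for uninduced and red points for induced libraries. The Ifitm transcripts and Lgals3bp stand at the right with the induced points lower, whereas Zbp1, Usp18, Rsad2, Ifi27 and Igtp have all induced points to the right of the uninduced ones.

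Among the factors that switch these genes on, none of the 4 members was called on either scale. Irf1, which responds early to interferon gamma, was at 86, 40.9 and 43.7 deposited TPM in uninduced and 48.5, 52.2 and 82.4 in induced libraries. One library of each group was high, and the groups overlapped. Its change was 0.14 (SE 0.31, adjusted p = 0.799) on deposited and 0.59 (SE 0.29, adjusted p = 0.253) on protein-coding TPM.

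Stat2, the factor that Irf9 carries to DNA, was at 18.8, 13.7 and 9.51 deposited TPM in uninduced and 16.2, 14.1 and 17.7 in induced libraries. The deposited values overlapped, but after protein-coding scaling the induced libraries (66.7 to 74.0) lay above the uninduced ones (34.6 to 60.6). The Stat2 change was 0.22 (SE 0.28, adjusted p = 0.652) on deposited and 0.68 (SE 0.27, adjusted p = 0.154) on protein-coding TPM. Irf9, the DNA-binding part of the complex, was at 30.3, 37.6 and 27.6 in uninduced and 33.3, 21.2 and 25.3 deposited TPM in induced libraries, and Irf7, which amplifies type I interferon production, was at 8.48, 11.6 and 7.63 and at 6.33, 9.18 and 7.12. Both overlapped between the groups, on either scale. Irf9 changed by -0.26 (SE 0.23, adjusted p = 0.502) on deposited and 0.18 (SE 0.20, adjusted p = 0.656) on protein-coding TPM, and Irf7 by -0.25 (SE 0.29, adjusted p = 0.614) and 0.16 (SE 0.30, adjusted p = 0.800), so the sign of both differed between the scales.

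The sensors of foreign or misplaced nucleic acid held 1 member of 6 that rose on protein-coding TPM (4.23% of all tested genes) and 1 that fell on deposited TPM (10.2% of all). Zbp1, a sensor of Z-form nucleic acid linked to necroptosis, was at 1.66, 4.47 and 3.24 deposited TPM in uninduced and 7.41, 6.47 and 6.49 in induced libraries. Every induced library was above every uninduced one, and the induced libraries were close to each other. Zbp1 changed by 0.98 on deposited TPM (SE 0.37, adjusted p = 0.114) and rose by 1.57 on protein-coding TPM (SE 0.41, adjusted p = 0.0456). That call was lost in 10 of 12 alternative analyses, with adjusted p-values from 0.0378 to 0.127, including each one that left out a library.

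Eif2ak2 encodes PKR, the kinase that halts translation on binding double-stranded RNA. It was at 20.0, 21.3 and 18.8 deposited TPM in uninduced and 7.24, 7.11 and 14.2 in induced libraries. All induced libraries were lower, with induced replicate 3 between the others and the uninduced group. Eif2ak2 fell by 1.07 on deposited TPM (SE 0.30, adjusted p = 0.0462). On protein-coding TPM its change was -0.69 (SE 0.29, adjusted p = 0.178). The deposited call was lost in 9 of 13 alternative analyses, with each library left out except induced replicate 3.

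The RNA helicases Ddx58 (RIG-I), Ifih1 (MDA5) and Dhx58 (LGP2), and Trim25, a ubiquitin ligase that acts on RIG-I, were not called. Ddx58 ranged from 14.5 to 23.9 deposited TPM over the 6 libraries, Ifih1 from 9.18 to 19.6, Dhx58 from 10.1 to 18.0 and Trim25 from 13.6 to 41.2, with overlapping groups throughout. Their protein-coding changes lay between 0.034 (Trim25) and 0.30 (Ifih1).

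Isg15, a ubiquitin-like protein that is joined to other proteins after interferon, had the largest positive fitted change among the members on both scales without being called. It was at 1.22 and 2.81 deposited TPM and listed at 0 in uninduced libraries, and at 3.58, 2.06 and 7.13 in induced ones. The spread within each group was wide, and induced replicate 2 lay below uninduced replicate 2 on the deposited scale. Isg15 changed by 1.25 on deposited TPM (SE 0.57, adjusted p = 0.188) and by 2.31 on protein-coding TPM (SE 0.82, adjusted p = 0.118).

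Usp18 removes Isg15 from proteins and blocks signalling at Ifnar2. It was at 1.08, 1.46 and 0.501 deposited TPM in uninduced and 5.99, 3.73 and 1.97 in induced libraries. All induced libraries were above all uninduced ones on both scales, and the induced values themselves differed widely. The Usp18 change was 1.23 on deposited TPM (SE 0.46, adjusted p = 0.112) and 2.05 on protein-coding TPM (SE 0.58, adjusted p = 0.0577), not called on either.

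None of the 3 tested oligoadenylate synthetases was called. Oasl2, an OAS-like protein, was at 12.9, 15 and 23.5 deposited TPM in uninduced and 21.8, 24.9 and 34.2 in induced libraries. The deposited values overlapped, because uninduced replicate 3 was above induced replicate 1, and the protein-coding values did not. Oasl2 changed by 0.64 (SE 0.28, adjusted p = 0.170) on deposited and 1.11 (SE 0.30, adjusted p = 0.0516) on protein-coding TPM. Oas1a and Oas3, which make the messenger that activates RNase L, overlapped between the groups, with protein-coding changes of 0.73 and 0.68. Oas1a shares 57.6% of its 50-base stretches with Oas1g or Oas1b, so its level is uncertain. Oas2, untested, was at 0.0855 to 0.871 deposited TPM in uninduced and 0.607 to 2.33 in induced libraries.

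The IFIT proteins, which bind viral RNA ends and block its translation, held no called member. Ifit2 was at 16.4, 15.3 and 12.0 deposited TPM in uninduced and 12.1, 7.88 and 7.71 in induced libraries. The highest induced library lay just above the lowest uninduced one, and the other induced libraries below all of them. Ifit2 changed by -0.62 (SE 0.28, adjusted p = 0.181) on deposited and -0.22 (SE 0.28, adjusted p = 0.686) on protein-coding TPM. Ifit1 ranged from 3.18 to 7.85 and Ifit3 from 0.510 to 2.70 deposited TPM over all libraries, with overlap. Ifit3 shares 51.2% of its 50-base stretches with Ifit3b, which was listed at no more than 0.0192 TPM in any library.

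The membrane proteins included the most abundant members, of which Ifitm3 and Ifitm2 fell while Ifitm1 and Bst2 were not called. On deposited TPM 2 of the 4 were called lower, beside 10.2% of all tested genes. On protein-coding TPM 1 of the 4 was, beside 4.21% of all. The small Ifitm proteins block the fusion of viruses with cell membranes. The Ifitm genes lie together on chromosome 7 of GRCm38 (GENCODE), Ifitm2 at chr7:140954837-140955987, Ifitm1 at chr7:140967221-140969825 and Ifitm3 at chr7:141009586-141010770. Ifitm3 was at 234, 225 and 160 deposited TPM in uninduced and 104, 106 and 98 in induced libraries. The groups did not overlap, and the induced libraries were nearly equal. Ifitm3 fell by 0.98 on deposited TPM (SE 0.18, adjusted p = 0.00897) and by 0.53 on protein-coding TPM (SE 0.13, adjusted p = 0.0350). The deposited call was lost without the variance trend and under median-of-ratios scaling (-0.58). The protein-coding call was lost in 7 of 13 alternative analyses, among them without uninduced replicate 1, without uninduced replicate 2 and without each induced replicate.

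Ifitm2 was at 212, 152 and 168 deposited TPM in uninduced and 95.2, 84.7 and 92.1 in induced libraries, again with no overlap. It fell by 0.95 on deposited TPM (SE 0.17, adjusted p = 0.00821), a call lost under median-of-ratios scaling (-0.55), and its protein-coding change was -0.51 (SE 0.16, adjusted p = 0.0774). Of its 50-base stretches 48.5% also occur in other genes, chiefly Gm45717, which covers 40.9% of its exon bases on the same strand. Gm45717 itself was listed at 0 to 0.0205 TPM in uninduced libraries and at 5.16, 0 and 2.45 in induced ones.

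Ifitm1 was the most abundant member, at 361, 352 and 369 deposited TPM in uninduced and 273, 289 and 350 in induced libraries. All induced libraries lay below the uninduced ones on this scale, induced replicate 3 only just, and the groups overlapped after protein-coding scaling. Ifitm1 changed by -0.25 (SE 0.14, adjusted p = 0.281) on deposited and 0.20 (SE 0.11, adjusted p = 0.327) on protein-coding TPM. Bst2 (tetherin), which holds budding virus at the cell surface, was at 17.5, 14.4 and 17.8 deposited TPM in uninduced and 9.64, 13.4 and 8.21 in induced libraries. Its deposited values did not overlap and its protein-coding values did. The Bst2 change was -0.64 (SE 0.27, adjusted p = 0.147) on deposited and -0.24 (SE 0.30, adjusted p = 0.682) on protein-coding TPM.

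Of the 6 tested GTPases, 2 rose on the protein-coding scale (4.23% of all tested genes), and none was called on the deposited scale (1.29% higher and 10.2% lower over all). Both are immunity-related GTPases, which attack the vacuoles of intracellular parasites. Iigp1 was at 17.7, 22.8 and 14.3 deposited TPM in uninduced and 27, 29 and 25.9 in induced libraries. Igtp was at 25.1, 21.2 and 20.2 in uninduced and 29.6, 34.5 and 31.2 deposited TPM in induced libraries. For both genes every induced library was above every uninduced one on either scale. Iigp1 rose by 1.04 on protein-coding TPM (SE 0.21, adjusted p = 0.0152), with a deposited change of 0.58 (SE 0.23, adjusted p = 0.140). Igtp rose by 0.96 on protein-coding TPM (SE 0.20, adjusted p = 0.0176), with a deposited change of 0.50 (SE 0.20, adjusted p = 0.140). Both calls were lost without induced replicate 2 (0.95 and 0.86), and that of Igtp also without uninduced replicate 2 (0.86).

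Igtp shares 11.8% of its 50-base stretches with its neighbour Irgm2, which was at 15.1, 12.9 and 2.02 deposited TPM in uninduced and 20.9, 22.0 and 8.27 in induced libraries. Irgm1, a regulator of this family known to be needed for stem cell quiescence, overlapped between the groups and changed by 0.40 on protein-coding TPM. The guanylate-binding proteins Gbp2, Gbp3 and Gbp7, which coat pathogen membranes, were not called, with protein-coding changes of 0.57, 0.075 and 0.37. Gbp7 shares 11.3% of its exon bases with the pseudogene Gm43802 on the same strand. That pseudogene was listed at 0.158 to 0.546 TPM in uninduced libraries and at 53.5, 37.6 and 0.440 in induced ones, so the level of Gbp7 is uncertain.

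Relatives of these GTPases outside the 42 members were compared with them after the values had been seen. Of 11 guanylate-binding protein genes 9 were tested, and Gbp2b, Gbp8 and Gbp9 rose on both scales, beside 1.29% of all tested genes on deposited and 4.23% on protein-coding TPM. Gbp2b was at 2.99, 1.18 and 1.63 deposited TPM in uninduced and 11.4, 10.1 and 11.7 in induced libraries. It rose by 2.08 on deposited TPM (SE 0.35, adjusted p = 0.00610) and by 2.86 on protein-coding TPM (SE 0.41, adjusted p = 0.00317), and it was called in all 13 alternative analyses on each scale. Gbp8 rose by 1.71 and 2.39, and Gbp9 by 1.49 and 2.09, on the deposited and protein-coding scales. Their deposited calls were lost without uninduced replicate 1, uninduced replicate 3 or induced replicate 2, and also without induced replicate 3 (Gbp8) or induced replicate 1 (Gbp9). Both deposited calls were also lost with no filter on low values, and that of Gbp9 without the variance trend. On the protein-coding scale induced libraries were above all uninduced ones in 8 of the 9, beside 15.7% of all tested genes. Of 6 immunity-related GTPase genes 5 were tested, and Tgtp1 rose beside Iigp1 and Igtp, by 0.96 on protein-coding TPM (SE 0.26, adjusted p = 0.0489), a call lost in 11 of 13 alternative analyses, including each one that left out a library.

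**Figure D3:**
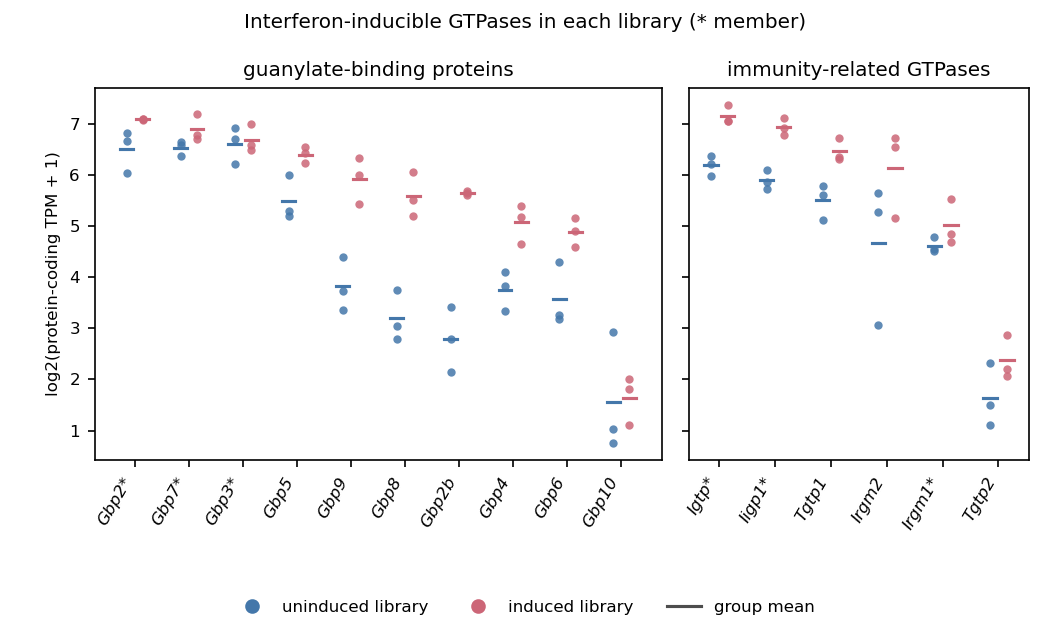
Level of guanylate-binding proteins (left) and immunity-related GTPases (right) in each library as log2(protein-coding TPM + 1), with short bars at the group means and asterisks on the members. Gbp2b, Gbp8 and Gbp9, which are not members, show wide gaps between the blue uninduced and red induced points, whereas Gbp3 and Irgm2 overlap.

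Parp9 and Parp14, ADP-ribosyltransferase family proteins of interferon signalling, were not called on either scale. On the protein-coding scale Parp9 was at 48.4, 50.8 and 48.6 in uninduced and 96.9, 95.5 and 70.5 in induced libraries. The groups did not overlap for either gene on that scale and overlapped for both on the deposited one. The protein-coding change was 0.80 (SE 0.23, adjusted p = 0.0570) for Parp9 and 1.04 (SE 0.33, adjusted p = 0.0831) for Parp14. Dtx3l, the partner of Parp9 encoded beside it, shares 9.4% of the exon bases of Parp9 on the opposite strand and had a protein-coding change of 0.30.

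Lgals3bp, a secreted glycoprotein that binds galectins, had the largest fall of any member. It was at 161, 127 and 106 deposited TPM in uninduced and 50.3, 42.2 and 52.5 in induced libraries. The lowest uninduced library was thus well above the highest induced one. Lgals3bp fell by 1.41 on deposited TPM (SE 0.20, adjusted p = 0.00368) and by 0.97 on protein-coding TPM (SE 0.16, adjusted p = 0.00625). The deposited call held in all 13 alternative analyses, and the protein-coding call was lost only without the variance trend (adjusted p up to 0.0695). None of its 50-base stretches occurs in another gene.

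Ifi27, which encodes a small hydrophobic protein, was at 26.6, 15.9 and 18.2 deposited TPM in uninduced and 33.2, 29.2 and 40.7 in induced libraries. All induced libraries were higher. Ifi27 rose by 1.22 on protein-coding TPM (SE 0.25, adjusted p = 0.0157), a call lost without induced replicate 3 (1.14), and its deposited change was 0.76 (SE 0.25, adjusted p = 0.0799). Rsad2 encodes viperin, which makes a chain-terminating nucleotide. Rsad2 was at 2.34, 2.64 and 1.79 deposited TPM in uninduced and 4.54, 5.92 and 4.04 in induced libraries. Its groups did not overlap on either scale, and its change was 0.84 (SE 0.35, adjusted p = 0.152) on deposited and 1.43 (SE 0.40, adjusted p = 0.0591) on protein-coding TPM.

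The other 6 members were not called on either scale. Xaf1, which promotes apoptosis, was at 14, 6.82 and 5.89 deposited TPM in uninduced and 6.60, 4.67 and 4.88 in induced libraries. Uninduced replicate 1 stood well above the other libraries. Xaf1 changed by -0.56 (SE 0.36, adjusted p = 0.356) on deposited and -0.18 (SE 0.39, adjusted p = 0.829) on protein-coding TPM. Samd9l, a growth-restraining gene mutated in familial marrow failure, had induced libraries (71.7 to 83.0) above the uninduced ones (45.0 to 58.0) on the protein-coding scale, with a change of 0.60. The exonuclease gene Isg20, Ifi35, Ifi44 and the receptor chaperone gene Rtp4 overlapped between the groups, with protein-coding changes of -0.047, -0.073, 0.43 and 0.64. An opposite-strand gene covers 16.8% of the exon bases of Ifi35, and how strand was used in counting is not given in the sources used here.

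The response element core was found among members of each pattern. It was held by 6 of the 8 members in the promoter table whose protein-coding levels were higher in every induced library. Ifi27, Iigp1 and Zbp1, all called higher on that scale, and Usp18, Parp9 and Parp14 were also higher there but had no promoter to search. The core was thus not looked for in most of the members called higher. Among members in the promoter table, the core was also held by 3 of the 4 that were lower, Ifitm2 and Ifitm3 among them. It was held by 9 of the 19 that overlapped.

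Upstream of the members, all 20 interferon genes in the table were listed at 0 TPM in all 6 libraries. The receptors and their kinases numbered 9, of which 8 were tested. None was called on the deposited scale by limma. There 2 had an unadjusted limma p under 0.05 with a positive change (502 of all 13470) and 0 with a negative one (3260 of all). On the protein-coding scale 4 rose, beside 4.23% of all tested genes. Without the variance trend all 4 of these calls were lost. Ifngr1, the ligand-binding chain of the interferon gamma receptor, was at 124, 125 and 80.4 protein-coding TPM in uninduced and 209, 207 and 264 in induced libraries. Ifngr1 rose by 1.05 (SE 0.21, adjusted p = 0.0160), a call lost without induced replicate 3 (0.94). Jak1, the kinase shared by the receptors, was at 258, 257 and 270 protein-coding TPM in uninduced and 425, 422 and 426 in induced libraries. The spread of Jak1 within each group was small beside the gap between them. Jak1 rose by 0.70 (SE 0.11, adjusted p = 0.00703), and its deposited change was 0.25 (SE 0.16, adjusted p = 0.350).

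Tyk2 rose by 1.24 (SE 0.30, adjusted p = 0.0335) and Il10rb, a chain of the interferon lambda and interleukin-10 receptors, by 1.46 (SE 0.29, adjusted p = 0.0143), both on protein-coding TPM. The Tyk2 call was lost in 8 of 13 alternative analyses, with each library left out except uninduced replicate 3, and that of Il10rb without induced replicate 1 (1.34) and without induced replicate 2 (1.46). Ifnar1, Ifnar2 and Ifngr2 were not called, with protein-coding changes of 0.18 (SE 0.25), 0.66 (SE 0.42) and -0.31 (SE 0.36).

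Of 16 other factors and feedback regulators 15 were tested, and none was called on the deposited scale by limma. An unadjusted limma p under 0.05 came there with a positive change in 3 (502 of all 13470) and with a negative one in 1 (3260 of all). On the protein-coding scale 3 rose, beside 4.23% of all tested genes. Without the variance trend these 3 calls were lost too. The 3 that rose were Irf8, a factor of the myeloid lineage, by 2.21 (adjusted p = 0.0376), Irf2bp2, a repressor partner of Irf2, by 0.94 (adjusted p = 0.0110), and Socs3, a feedback inhibitor of cytokine receptors, by 1.29 (adjusted p = 0.0263). The Irf8 call was lost in 9 of 12 alternative analyses, with each library left out except uninduced replicate 3. The Socs3 call was lost in 5 of 13, among them without uninduced replicate 3, induced replicate 1 or induced replicate 2.

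The nucleic acid sensing pathway held 18 genes of the table, 15 tested. On the protein-coding scale, beside 4.23% called higher over all genes, Samhd1, a nucleotide hydrolase, rose by 1.06 (adjusted p = 0.00455) and Tmem173, which encodes STING, rose by 0.81 (adjusted p = 0.0319). Both calls were lost without the variance trend, and that of Tmem173 also with each library left out except induced replicate 3. Rnaseh2b, a subunit of ribonuclease H2, fell by 2.17 on deposited TPM (adjusted p = 0.0275). It was the only 1 of the 15 called lower on that scale, where 10.2% of all tested genes were, and its alternative analyses are not given. The protein-coding change of Rnaseh2b was about as large, -2.18, with no overlap, but was not called (adjusted p = 0.0929).

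A further 64 interferon-inducible genes were counted, and whether they differ from the members was not tested. On the deposited scale 42 were tested, 5 rose (Oas1c, Gbp2b, Gbp8, Gbp9 and Ly6a) and Slfn9 fell, beside 1.29% higher and 10.2% lower over all tested genes. On the protein-coding scale 41 were tested, 9 rose and Slfn9 fell, where 4.23% of all were called higher and 4.21% lower, and the median change was 0.66. Ly6a encodes Sca-1, which the sort required, and it was at 12.1, 14 and 16.4 deposited TPM in uninduced and 42.8, 30.6 and 38.4 in induced libraries. It rose by 1.33 on deposited TPM (SE 0.23, adjusted p = 0.00694) and by 1.82 on protein-coding TPM (SE 0.23, adjusted p = 0.00181).

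Besides the GTPases and Ly6a, the genes that rose on the protein-coding scale were Oas1c by 2.16 (adjusted p = 0.0213), Trim30a by 0.89 (adjusted p = 0.0470), Tap2 by 1.18 (adjusted p = 0.0149) and B2m by 0.49 (adjusted p = 0.000827). Tap2 and B2m serve antigen presentation by class I molecules. Slfn9, a Schlafen family gene, fell by 2.18 (adjusted p = 0.0149), from 9.67 to 14.7 deposited TPM in uninduced to 0.889 to 2.33 in induced libraries. The Oas1c call was lost in 5 of 12 alternative analyses (without uninduced replicate 2 or 3, without induced replicate 2 or 3, and with the replicate block). The Trim30a call was lost in 10 of 13, with every library left out in turn. The Tap2 and B2m calls were lost without the variance trend (adjusted p = 0.071 and 0.179). Without induced replicate 2 the Tap2 call was also lost, and without uninduced replicate 2 that of Slfn9. On the deposited scale the Oas1c call was lost with every library left out in turn.

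**Figure D4:**
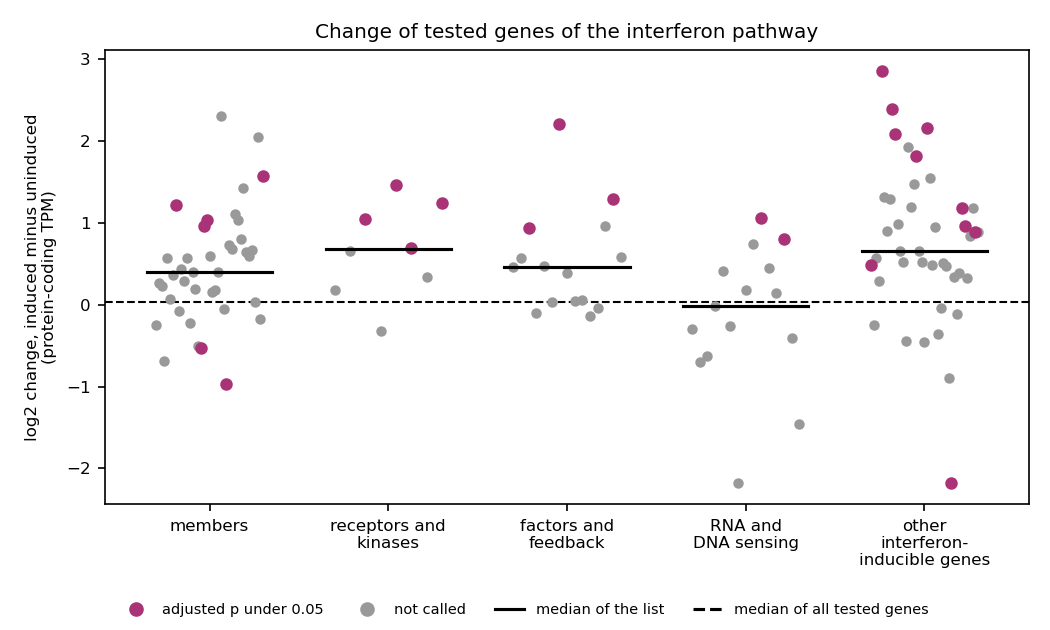
The log2 change of each tested gene on the protein-coding scale, by pathway list and in alphabetical order within a list, with solid bars at list medians and the dashed line at the median of all tested genes. Called genes (purple) lie mostly above the dashed line, and the members' median (0.40) lies between those of the sensing genes (-0.0093) and the further interferon-inducible genes (0.66).

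Markers of other cells that can hold these transcripts were summed in deposited TPM. The 5 plasmacytoid dendritic cell markers, cells known as a main source of type I interferon, were listed at 0 in every library. The 8 macrophage and monocyte markers summed to 81.4 to 129 in uninduced and 133 to 151 in induced libraries, with Fcgr1 at 0 throughout and Adgre1 and Csf1r at no more than 1.54 in any library. Lyz2, most of that sum, rose by 0.89 on protein-coding TPM (adjusted p = 0.00303). Cd68, C1qa and C1qc were not called, with positive changes on both scales, and C1qb was listed at 0 in uninduced libraries and at 0.734, 0.489 and 1.24 in induced ones. The 6 neutrophil markers, all above 0, summed to 177 to 194 and to 98.9 to 123, but on the protein-coding scale each of the 6 overlapped between the groups and none was called (median change -0.24). The 6 T and NK cell markers summed to 5.84 to 16.4 and to 0.253 to 0.445, with Cd3e, Cd3g, Trac and Ncr1 at 0. Nkg7, called lower on both scales, made up most of the uninduced sum, at 6.21, 15.8 and 5.84, and was listed at 0 in induced libraries. Klrb1c was at no more than 0.775 in any library, and the B cell markers Cd79a, Ms4a1 and Pax5 were at 0 while Cd79b was at 4.21 to 9.86 and 3.11 to 3.86. The 4 endothelial markers summed to 24.1 to 35 and to 38.6 to 47.8, with Cdh5 at 0 in all induced libraries and Pecam1 rising by 1.28 on protein-coding TPM (adjusted p = 0.0174), and the 3 progenitor markers to 49.1 to 62.9 and to 67.1 to 86.9, chiefly Cd34. The 6 megakaryocyte markers overlapped in their sum (102 to 135 and 119 to 129), with Pf4 and Ppbp called higher on both scales and Gp9 called lower on deposited TPM. The part of such cells in the members' values was not tested, and in bulk RNA fewer cells of a type and less RNA per cell cannot be told apart.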

How the data were processed

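Libraries were made from total RNA with a stranded pico-input kit and sequenced in pairs, per the labels' protocols. The submitters' processing notes list bcl2fastq, HISAT2, StringTie, DESeq2 and build GRCm38, with no roles or versions, and the annotation release is not given in the sources used here. The authors deposited gene TPM in 1 table, whose GC content in percent, per the file headers, was not used. TPM keeps no sequencing depth, so depth is unknown. The 60496 table lines, 5025 of which repeat a gene ID, were summed per ID. limma 3.58.1 (R 4.3.3, variance trend, empirical Bayes) was run on log2(TPM + 1) for the 13470 genes that averaged 1 TPM or more in the 6 libraries, two-sided, with Benjamini-Hochberg adjustment over all of them and a threshold of 0.05. It was repeated after scaling protein-coding genes to a common total (10575 genes). The script was tested on simulated data. Groups came from the library titles. Members and lists were chosen with earlier results of these data known. By the naming rule, members called on either scale, the 4 transcription factors, the 3 most abundant members, the 6 largest rises and 6 largest falls, and called pathway genes are given in full. Sequence sharing and exon overlap were computed on GENCODE transcripts of GRCm38, with 50-base stretches. Alternatives were pseudocounts of 0.1 and 5, no filter, an average of 5 TPM or more, no variance trend, median-of-ratios scaling, nuclear protein-coding genes only, a replicate block, and 5 of the 6 libraries at a time. Some results are not reported here.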

Additional observations from a re-analysis of the deposited data

How the results depend on the processing

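With 3 libraries a group and TPM without depth, small changes could not be resolved and no detection limit can be given. Members called on deposited TPM numbered 3 or 4 when each library was left out, and 1 (Lgals3bp) without the variance trend. Under median-of-ratios scaling they numbered 4, split as 3 higher (Ifi27, Igtp, Iigp1) and 1 lower (Lgals3bp), 1 of them shared with the calls in the report, and the members' median change was 0.321. That scaling moved the median of all genes from -0.346 to -0.0029, and the changes of Irf7 (0.105), Irf9 (0.125), Ifitm1 (0.147) and Ifnar1 (0.128) were then above 0. Members called on protein-coding TPM numbered 2 (without induced replicate 2) to 6 (without uninduced replicate 3) with a library left out, and 1 (Rsad2) without the variance trend. Same-numbered libraries of the 2 groups deviated from their group means with correlations of 0.0215, -0.0152 and 0.0172. These values showed no pairing, but with 3 libraries a group they cannot exclude it. With a replicate block 3 members were called on deposited TPM (without Eif2ak2) and 6 on protein-coding TPM, where Zbp1 was replaced by Oasl2. Leaving out a library turned the sign of changes near 0. Deposited changes ranged from -0.0119 to 0.443 for Stat2, from -0.0897 to 0.479 for Irf1, from -0.0918 to 0.674 for Ifnar2 and from -0.0504 to 0.104 for B2m, and protein-coding changes from -0.0305 to 0.278 for Irf7. The cause of these differences was not tested. Over all genes, 1549 were called on deposited TPM, 752 without a filter, 767 without the variance trend, 814 under median-of-ratios scaling, 902 with the replicate block and 611 to 1276 with a library left out. On protein-coding TPM 892 were called, 324 without the variance trend, 670 with the replicate block and 510 to 564 with a library left out.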
